A study of Mus musculus with 16 samples.

Results

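Cell cycle and DNA replication genes were followed as a set of 40 genes among the 26382 of the deposited mouse table, each taken as the row whose gene symbol equals the listed name. The set was divided by role into 14 S phase genes (DNA copying and nucleotide supply), 15 genes of mitosis, 7 genes of G1 and S entry (the cyclins, kinase and transcription factor that commit a cell to divide) and 4 inhibitors of cyclin-dependent kinases. All 40 members passed the filter on low values that left 16414 genes for testing.

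The tissue was hamstring muscle of female C57BL/6 mice aged 8 to 10 weeks, analysed as bulk RNA 14 days after intramuscular injection of HRS, the recombinant mouse histidyl-tRNA synthetase used to induce myositis. HRS legs were the left legs of 5 mice (m862 to m866) given HRS at 3 to 5 mg/mL, and the contralateral PBS legs were the right legs of those animals. PBS-only libraries were both legs of 2 mice that never received HRS, and HRS-MBP libraries came from 2 mice given what the titles call an MBP fusion protein at 2 to 3 mg/mL, with no side stated. Their treatment label instead reads 3 to 5 mg/mL, as for the HRS legs, so their dose is uncertain. The protocol describes injection of both legs, whereas the titles give each leg its own injection, and the titles were followed. A contralateral leg shares its animal with an HRS leg and so is not a leg of an untreated mouse. The 4 PBS-only libraries represent only 2 animals. All libraries are from a single time point.

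Dividing cells copy their DNA once in S phase and separate it in mitosis. Genes for DNA copying are held down by E2F and pocket protein complexes until cyclin-dependent kinases release them, whereas many genes of mitosis are released later through the CHR element and the CCAAT box of their promoters. Muscle fibres are post-mitotic, so the resting tissue has few dividing cells, while infiltrating leukocytes, satellite cells and fibroblasts can re-enter the cycle.

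The promoters of 5 members that rose are shown, since the S phase and mitosis classes are named for steps that these elements are known to time. Stretches are bases upstream of the RefSeq transcription start on GRCm38.p6, 5′ to 3′ on the strand of the gene, with motif matches on either strand in capitals. They run from base -250 to -1 before the start, except that of *Cdk1*, which ends at -27 because an annotated exon follows, so that a CHR match at -15 in its window is not shown. The E2F motif was searched as TTTCCCGC, TTTGGCGC, TTTCGCGC or TTTGCCGC, the CHR as TTTGAA or TTCGAA, and the CCAAT box as CCAAT. Reverse complements therefore also appear in capitals, such as ATTGG and TTCAAA. *Mcm5* and *Mcm6*, of the replicative helicase, lie at chr8:75109259-75109508 on the plus strand and chr1:128359706-128359955 on the minus strand. *Mki67*, the proliferation marker Ki-67, lies at chr7:135716380-135716629 on the minus strand. *Top2a*, the topoisomerase that untangles chromosomes, and *Cdk1*, the mitotic kinase, lie at chr11:99024190-99024439 and chr10:69352939-69353162, both on the minus strand.
Mcm5: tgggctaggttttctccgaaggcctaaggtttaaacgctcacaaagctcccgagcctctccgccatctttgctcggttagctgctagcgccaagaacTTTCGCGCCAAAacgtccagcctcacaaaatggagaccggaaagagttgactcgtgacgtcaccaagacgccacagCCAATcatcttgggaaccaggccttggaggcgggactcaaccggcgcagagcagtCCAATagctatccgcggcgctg
Mcm6: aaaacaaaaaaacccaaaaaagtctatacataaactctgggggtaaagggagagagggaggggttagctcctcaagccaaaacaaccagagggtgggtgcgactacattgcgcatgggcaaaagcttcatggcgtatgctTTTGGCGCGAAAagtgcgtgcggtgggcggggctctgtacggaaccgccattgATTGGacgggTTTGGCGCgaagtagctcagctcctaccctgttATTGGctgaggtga
Mki67: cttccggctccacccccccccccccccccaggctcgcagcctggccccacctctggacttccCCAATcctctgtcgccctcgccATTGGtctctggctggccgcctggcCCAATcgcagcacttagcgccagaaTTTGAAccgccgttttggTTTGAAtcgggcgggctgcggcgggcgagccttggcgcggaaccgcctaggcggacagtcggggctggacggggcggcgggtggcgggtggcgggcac
Top2a: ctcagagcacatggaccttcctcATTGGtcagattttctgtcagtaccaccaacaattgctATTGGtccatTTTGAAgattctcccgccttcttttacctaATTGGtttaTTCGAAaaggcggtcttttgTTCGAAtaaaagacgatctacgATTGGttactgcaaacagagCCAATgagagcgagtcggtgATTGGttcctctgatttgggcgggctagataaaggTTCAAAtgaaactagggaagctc
Cdk1: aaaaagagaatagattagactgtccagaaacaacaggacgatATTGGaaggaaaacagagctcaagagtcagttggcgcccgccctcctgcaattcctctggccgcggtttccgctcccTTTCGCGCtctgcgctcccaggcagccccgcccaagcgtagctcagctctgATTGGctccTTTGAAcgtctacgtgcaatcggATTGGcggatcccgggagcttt

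In *Mcm5* and at the upstream site of *Mcm6*, the capitals hold overlapping E2F matches on opposite strands. No stretch of *Mki67* or *Top2a* holds an E2F match, and both hold CHR and CCAAT matches. A RefSeq promoter window (250 bases before to 50 after the start) was available for 31 of the 40 members. A CHR match was in 10 of the 12 mitosis windows (83.3%) and 3 of the 12 S phase windows (25%), compared with 21.7% of the 27025 genes with a window. An E2F match was in 6 of 12 S phase windows (50%) and 1 of 12 mitosis windows (8.33%, that of *Cdk1*), compared with 2.6% of all. CCAAT matches were in 10 S phase windows (83.3%) and 11 mitosis windows (91.7%), compared with 41.1% of all. Over the 14873 genes with a window that are in the deposited table, the shares were 17.9% for the CHR, 3.9% for E2F and 41.7% for CCAAT. Matches were found both in members called in HRS legs and in members not called. The 3 S phase windows with a CHR were those of *Mcm2*, *Mcm7* and *Cdc45*, none of them called, and *Mcm7* also held E2F matches. CCAAT matches were in the windows of *Rrm1*, *Pcna*, *Aurka* and *Cdkn1b*, not called either, with a CHR in that of *Aurka*. Among members called higher, *Ccnb1* and *Birc5* held no CHR, and *Rrm2* and *Tyms* no E2F match. A match describes letters only and is neither a bound site nor a cause.

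Values are normalized counts as deposited, which are not divided by gene length. The order of levels between genes is therefore read only per kilobase of exon, and a value given as a percent of other genes serves only to follow that ratio across libraries. The order per kilobase depends on the exon bases annotated for a gene, which need not be the length of the transcript expressed. Implied depth was 8.6 to 73.9 M reads per library (median 39.35 M), and 3 reads were worth 0.0324 to 0.364 normalized counts, which marks the floor for low genes and covers counting error only. The HRS leg of m866 stood apart from the other HRS legs, with mitochondrial genes at 11.1% of its total against 3.41% to 6.29% in the other 4, and the members whose groups overlap because of it are also given without it. Its share lay within that of the contralateral legs (9.69% to 11.2%), below PBS-only libraries (11.3% to 13.1%). HRS-MBP libraries were at 5.94% and 6.98%. Totals of normalized counts moved with this share, at 726797 to 871400 in the other 4 HRS legs, 1162004 in that of m866, 805943 and 828943 in HRS-MBP, and 958741 to 1252358 in PBS libraries, and the part of these shifts in the members' changes was not tested. Muscle fibre markers were abundant in all 16 libraries, with a summed level of at least 36129.

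The first comparison set each HRS leg beside the PBS leg of its own mouse. Of the 40 cell cycle members, 29 rose, 1 fell and 10 were not called in HRS legs compared with contralateral PBS legs. A gene was called at a limma adjusted p under 0.05, over all 16414 genes tested, with an absolute log2 fold change above 1, and 16.9% of all genes tested were called higher and 6.27% lower. The median log2 fold change was 1.71 over the members and 0.077 over all genes tested. By class, 13 mitosis genes rose and 1 fell (median 2.42), 8 S phase genes rose (1.40), 5 genes of G1 and S entry rose (1.40) and 3 inhibitors rose (1.23). Without both legs of m866, the same class counts were 13 higher and 1 lower, 9, 6 and 3, with medians of 2.82, 1.60, 1.74 and 1.53. In bulk tissue, more cells of a dividing type and more RNA of these genes per cell cannot be told apart.

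**Figure D1:**
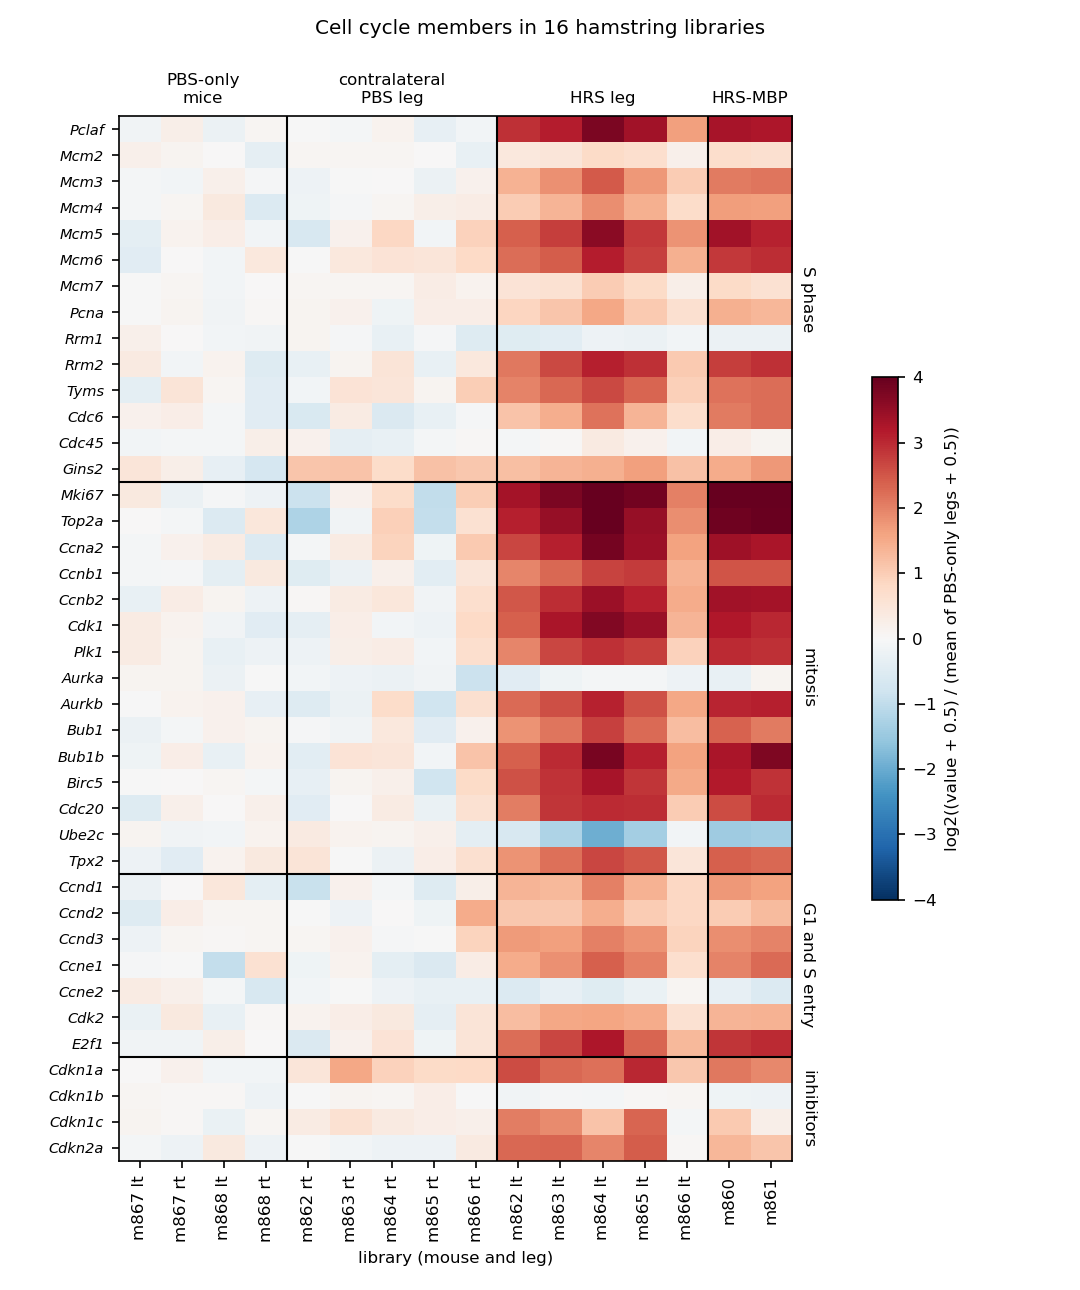
Log2 ratio of each normalized count + 0.5 to the PBS-only mean, with the 40 members in rows by class and the 16 libraries in columns by group (red above, blue below, saturating at an absolute value of 4). Most S phase, mitosis and G1 and S entry rows are red in 4 HRS legs and both HRS-MBP libraries and paler in the HRS leg of m866, while *Rrm1*, *Cdc45*, *Aurka*, *Ccne2* and *Cdkn1b* stay pale and *Ube2c* is blue.

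Among S phase genes, *Pclaf*, which encodes a PCNA-binding factor of replicating cells, moved most. Its normalized counts were 7.45, 8.80, 13.8, 10.3 and 2.76 in the HRS legs of m862, m863, m864, m865 and m866, and 0.545, 0.494, 0.647, 0.331 and 0.469 in their PBS legs. Every HRS leg was above every PBS leg, and the PBS-only libraries were at 0.391 to 0.739, a range that overlaps that of the contralateral legs. The log2 fold change was 3.05 ± 0.29 (SE, adjusted p = 2.43e-06).

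The MCM helicase, the 6-part ring that unwinds DNA at replication forks, did not move as a unit. *Mcm5* was at 9.10, 11.8, 21.7, 12.4 and 5.83 in the HRS legs of m862 to m866, in that order, and at 0.673, 1.57, 2.73, 1.21 and 2.94 in the PBS legs. *Mcm6* was at 17.1, 19.4, 32.5, 24.3 and 9.41 against 3.17, 4.52, 4.94, 4.71 and 6.06. The groups did not overlap for either, and log2 fold changes were 2.44 ± 0.32 (adjusted p = 3.34e-05) and 1.94 ± 0.26 (adjusted p = 3.97e-05). *Mcm3* (1.73 ± 0.20) and *Mcm4* (1.20 ± 0.20) were called too, *Mcm4* no longer under quantile normalization (0.87). *Mcm2* was at 13.9, 14.5, 17.8, 16.8 and 11.9 in the HRS legs and at 10.9, 10.9, 10.9, 10.4 and 8.35 in the PBS legs. Its groups did not overlap either, but the difference was small, at 0.51 ± 0.13 (adjusted p = 0.00395), and with *Mcm7* (0.51 ± 0.12, adjusted p = 0.00292) it passed the p threshold without passing the fold threshold.

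*Rrm2* encodes the small subunit of ribonucleotide reductase, which is known to be made in S phase, and *Rrm1* the large subunit. *Rrm2* was at 7.14, 10.4, 14.6, 12.7 and 3.15 in the HRS legs and 0.929, 1.38, 2.03, 0.912 and 1.86 in the PBS legs, without overlap (2.28 ± 0.32, adjusted p = 6.26e-05). *Rrm1* was at 25.8, 26.9, 31.5, 31.0 and 33.3 against 39.4, 35.3, 29.1, 34.8 and 25.4, and its groups overlapped (-0.13 ± 0.12, adjusted p = 0.361). Per kilobase of exon (11012 annotated bases for *Rrm1* and 2771 for *Rrm2*), the mean level of *Rrm1* in PBS-only libraries was 3.29 and that of *Rrm2* 0.452. In HRS legs the levels were 2.7 and 3.47. That order depends on the annotated lengths, since the undivided means in HRS legs were 29.7 and 9.61. *Tyms*, thymidylate synthase, rose by 1.64 ± 0.30 (adjusted p = 0.000464), although the HRS leg of m866 (1.49) lay below the PBS leg of that mouse (1.53). Without that HRS leg the value was 1.91.

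Of the remaining S phase genes, *Cdc6*, a loader of the helicase, was called (1.60 ± 0.25, adjusted p = 0.000158), but not at a pseudocount of 2 (0.81). *Pcna*, the sliding clamp of the polymerases, was at 25.5 to 47.7 in HRS legs and 14.4 to 19.4 in PBS legs. These ranges did not overlap, and its log2 fold change of 0.91 ± 0.14 (adjusted p = 0.000117) fell short of the fold threshold and reached it without the HRS leg of m866 (1.01). *Cdc45*, which activates the helicase, was at 2.80 to 4.04 against 2.27 to 3.49, with overlap (0.18 ± 0.14, adjusted p = 0.270), and its sign changed to -0.25 under quantile normalization. *Gins2*, of the same activating complex, was at 18.2 to 25.3 against 13.4 to 18.2, with a difference of 0.31 ± 0.18 (adjusted p = 0.156). S phase genes that were called had a median level of 0.485 normalized counts per kilobase in contralateral legs (8 genes), and those not called, *Gins2* aside, one of 2.29 (5 genes). In HRS legs these medians were 3.26 and 2.7. The contralateral level enters the fold change that decides the call, so the contrast between called and uncalled genes is partly set by the call itself.

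Genes of mitosis showed the largest changes of the set. *Mki67* was at 19.2, 26.2, 41.7, 28.4 and 7.51 in the HRS legs of m862 to m866 and at 0.577, 1.73, 2.77, 0.5 and 3.37 in their PBS legs. Every HRS leg was above every PBS leg, and the within-mouse ratio ran from 2.23 in m866 to 56.7 in m865. The group means were 24.6 ± 12.5 (SD, n = 5) and 1.79 ± 1.28 (SD, n = 5), with a log2 fold change of 3.47 ± 0.43 (adjusted p = 1.91e-05). Permutation of the legs gave an exact p of 0.00794 and sign flips over the 5 mice an exact p of 0.0625, both two-sided and the smallest these designs allow. *Top2a* gave the same order of HRS legs, at 15.5, 20.3, 33.7, 20.6 and 6.29 against 0.288, 1.19, 3.14, 0.471 and 2.34. Its groups did not overlap, and the log2 fold change was 3.38 ± 0.44 (adjusted p = 2.77e-05).

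Cyclins and kinases of mitosis rose with them. *Cdk1* was at 3.95, 7.6, 10.5, 8.81 and 1.68 in HRS legs and at 0.160, 0.511, 0.277, 0.235 and 0.969 in PBS legs, without overlap (2.76 ± 0.37, adjusted p = 3.67e-05). Its partners *Ccna2* (cyclin A2, 2.53 ± 0.36), *Ccnb1* (cyclin B1, 2.33 ± 0.27) and *Ccnb2* (cyclin B2, 2.42 ± 0.29) were called, as was *Plk1*, polo-like kinase 1 (2.07 ± 0.32). The spindle checkpoint genes *Bub1* (2.04 ± 0.25) and *Bub1b* (2.45 ± 0.35), *Birc5*, or survivin, of the chromosomal passenger complex (2.63 ± 0.31), and *Cdc20*, the activator of the anaphase-promoting complex (2.33 ± 0.34), were called as well. *Bub1* was at 0 in the PBS leg of m865 and at most at 0.416 in the others, so that its fold rests on few reads there, and it was not called at a pseudocount of 2 (0.994). *Ccnb1* also lay under the floor of 3 reads in the PBS legs of m862 (0.032) and m865 (0.0588), and *Birc5* in that of m865 (0.0294). *Tpx2*, a spindle assembly factor, rose by 1.69 ± 0.33 (adjusted p = 0.000857) with overlap, since the HRS leg of m866 (2.37) lay below the highest PBS legs, at 2.44 and 2.75. Without that HRS leg it was 2.05.

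The Aurora kinases differed. *Aurkb*, which acts at the kinetochore with survivin, was at 4.73, 5.95, 8.72, 5.84 and 2.65 in HRS legs and at 0.256, 0.428, 1.29, 0.118 and 1.18 in PBS legs, without overlap (2.44 ± 0.31, adjusted p = 2.42e-05). *Aurka*, which acts at the centrosome with *Tpx2*, was at 3.95, 4.90, 5.34, 5.25 and 4.77 against 5.16, 4.84, 4.66, 5.03 and 2.91. Its groups overlapped, with a difference of 0.11 ± 0.15 (adjusted p = 0.557), whose sign changed without the PBS leg of m866 (-0.03) and under quantile normalization (-0.32). Per kilobase of exon, *Aurka* was at 2.22 and *Aurkb* at 0.198 in PBS-only libraries, and at 1.91 and 1.89 in HRS legs.

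*Ube2c*, the ubiquitin-conjugating enzyme of the anaphase-promoting complex, was the single member to fall. It was at 1458, 967, 582, 896 and 2101 in HRS legs and 2911, 2522, 2460, 2634 and 1730 in PBS legs. The legs of m866 ran the other way from those of the other 4 mice, and the groups overlapped (-1.15 ± 0.28, adjusted p = 0.00312, and -1.38 without the HRS leg of m866). The call was lost when mouse was a fixed term and only the 10 paired legs were fitted (adjusted p = 0.0536), without the HRS leg of m864 (-0.92) and under quantile normalization (-0.65), and was kept with a correlation within mouse over all 16 libraries. In the GENCODE M21 annotation, 592 of its 2600 exon bases (22.8%) are shared with *Tnnc2*, troponin C of fast muscle fibres, on the opposite strand. *Ube2c* stayed at 26.3% to 30.2% of the *Tnnc2* value in all 16 libraries, while *Tnnc2* itself ranged from 2056 to 10253. How strand entered the authors' counting is not stated, so reads of these genes cannot be told apart here.

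**Figure D2:**
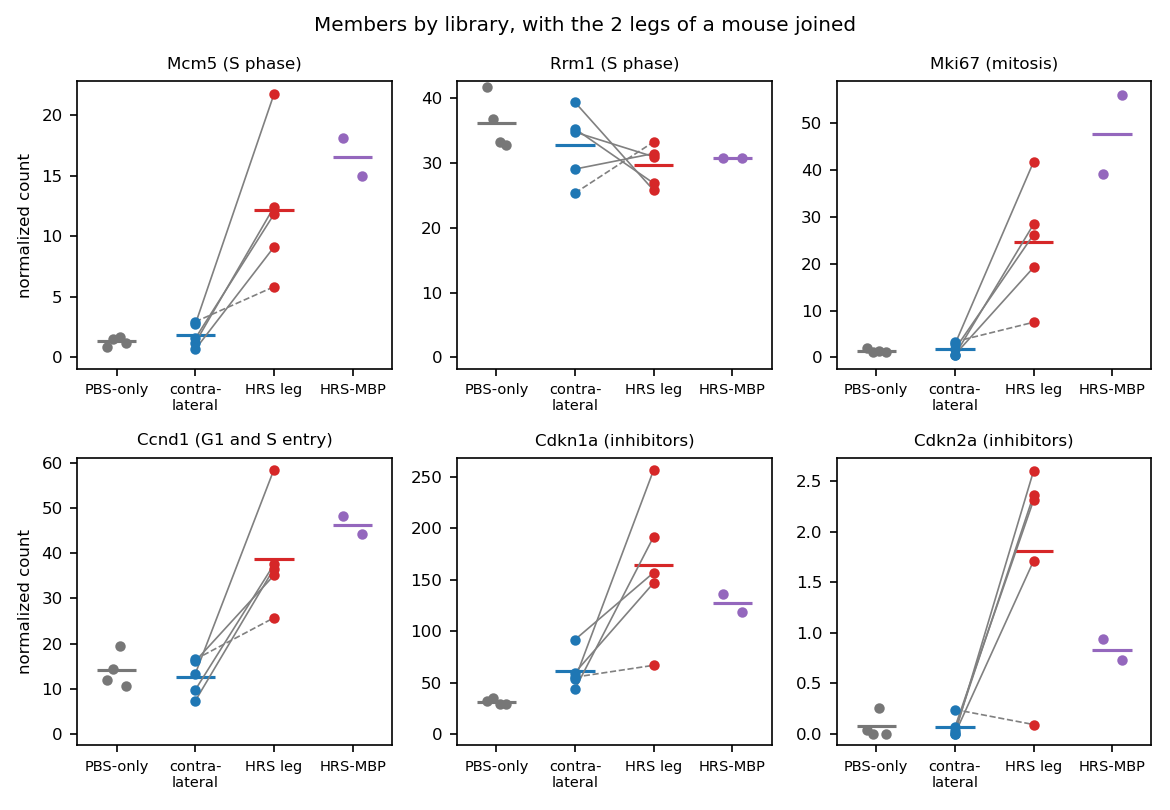
Normalized counts (vertical, linear axis) of 6 members in the 4 groups, with a point per library, a bar at each group mean and a line joining the legs of a mouse, dashed for m866. Lines rise steeply for *Mki67* in 4 mice and less in m866, where the legs were at 7.51 and 3.37, and they cross for *Rrm1*.

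Among genes of G1 and S entry, *E2f1*, the transcription factor that drives S phase genes, was at 10.3, 14.3, 21.1, 11.1 and 5.14 in HRS legs and at 1.06, 2.11, 2.91, 1.56 and 2.83 in PBS legs. The groups did not overlap (2.24 ± 0.29, adjusted p = 3.03e-05). *Ccnd1*, cyclin D1, which links growth signals to the cycle, was at 36.6, 35.1, 58.5, 37.5 and 25.7 against 7.33, 16.1, 13.3, 9.76 and 16.5, again without overlap (1.59 ± 0.24, adjusted p = 9.41e-05). *Ccnd3*, cyclin D3, known for its role in lymphocytes, rose by 1.40 ± 0.20 (adjusted p = 5.56e-05). Its HRS leg in m866 (42.2) lay just above the PBS leg of the same mouse (41.5), while the other 4 PBS legs were at 21.8 to 25.1. *Ccnd2*, cyclin D2, was at 45.4 to 70.3 in HRS legs, at 22.0 to 25.6 in 4 PBS legs and at 71.1 in the PBS leg of m866. Its log2 fold change of 0.88 ± 0.27 (adjusted p = 0.0104) was not past the fold threshold and became 1.19 without that PBS leg. *Ccne1*, cyclin E1 (1.82 ± 0.32), and its kinase *Cdk2* (1.09 ± 0.21) were called, *Cdk2* no longer without the PBS leg of m865 (0.96) or under quantile normalization (0.78), and neither of them at a pseudocount of 2 (0.967 and 0.962). *Ccne2*, cyclin E2, was at 4.15 to 6.73 against 4.98 to 6.20, with overlap (-0.12 ± 0.17, adjusted p = 0.561). Per kilobase, *Ccne2* was at 1.80 and *Ccne1* at 0.176 in PBS-only libraries, and at 1.44 and 1.06 in HRS legs. Exons on the opposite strand share 17.4% of the exon bases of *Ccne2* (*Ints8*) and 23.4% of those of *Ccnd1* (*LTO1*). *Ccne2* was at 29.1% to 45.7% of the *Ints8* value across the 16 libraries, whereas *Ccnd1* ranged from 48% to 360% of *LTO1*.

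The inhibitors bind and block cyclin-dependent kinases, and 3 of the 4 rose. *Cdkn1a*, which encodes p21, was at 192, 157, 147, 257 and 66.8 in HRS legs and at 43.8, 91.8, 59.7, 53.4 and 55.3 in PBS legs. It was higher in the HRS leg of 5 of 5 mice, yet the groups overlapped, because the PBS leg of m863 exceeded the HRS leg of m866 (1.34 ± 0.27, adjusted p = 0.00105). It was 1.63 without that HRS leg. *Cdkn1c*, which encodes p57, was at 109, 96.8, 58.2, 132 and 24.6 against 32.7, 39.9, 33.8, 31.1 and 30.1. The HRS leg of m866 lay below every PBS leg, and the rise of 1.11 ± 0.34 (adjusted p = 0.0103) fell under the fold threshold without the HRS leg of m862 (0.97) or of m865 (0.90) and was 1.496 without that of m866. An antisense gene covers 30.7% of its exon bases.

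*Cdkn2a*, which encodes p16 and ARF, was at 2.31, 2.36, 1.71, 2.60 and 0.0935 in HRS legs and at 0.0641, 0.0330, 0, 0 and 0.242 in PBS legs. The HRS leg of m866 held an implied 3 reads and 4 of the PBS legs 2 or fewer, at or under the floor, so the fitted log2 fold change of 1.84 ± 0.36 (adjusted p = 0.000805) depends on the pseudocount and was no longer called at a pseudocount of 2. It was 2.28 without that HRS leg. *Cdkn1b*, which encodes p27, was at 51.1, 54.8, 53.7, 58.6 and 59.5 against 55.9, 60.8, 60.0, 68.8 and 55.6. The groups overlapped within a narrow range, and no change was called (-0.11 ± 0.08, adjusted p = 0.260).

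The order of the HRS legs differed between the classes. The HRS leg of m864 was the highest of the 5 in 8 of 8 called S phase genes, in 12 of 13 mitosis genes that rose and in 5 of 5 called genes of G1 and S entry. For the 3 inhibitors that rose, the highest leg was that of m865 in each. The HRS leg of m866 was the lowest for all 29 members that rose. Within mice, the median log2 difference between the legs was 2.50, 2.62, 2.92, 3.22 and 0.628 for mitosis in m862 to m866 and 1.38, 1.26, 1.97, 1.42 and 0.461 for S phase. Mitosis thus exceeded S phase in 5 of 5 mice. For the inhibitors it was 1.92, 1.02, 1.03, 2.17 and -0.0923. These orders were seen in the same libraries that gave the calls and were not tested. The share of all genes called higher that had the same highest or lowest leg is not given here. The orders are therefore not read as particular to the members.

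Markers of infiltrating cells were higher in HRS legs too. All 5 general leukocyte markers (*Ptprc*, *Coro1a*, *Laptm5*, *Cd53* and *Cd52*) were called higher in HRS legs, where their summed level was 488, 573, 1099, 538 and 242 in m862 to m866, against 23.6, 48.8, 51.6, 36.6 and 56.3 in the PBS legs. The highest and lowest HRS legs, m864 and m866, were those of the S phase and mitosis genes. The T cell sum, at 63.2, 43.5, 155, 44.7 and 23.6 in m862 to m866, had the same highest and lowest legs. The B and plasma cell sum did not, at 53.1, 20.3, 45, 35.7 and 50.4. All 9 T cell, 6 B and plasma cell, 5 NK cell and 6 macrophage markers were called higher, as were the 4 neutrophil markers that could be tested. *Ly6g* was at 0 in all contralateral and PBS-only libraries. Of 5 fibroblast markers 2 were higher, of 5 satellite cell and myoblast markers 2 (*Myog* and *Mymk*) and of 5 endothelial markers 0, while 2 of 6 muscle fibre markers were lower. The summed muscle fibre level was 36129 to 145112 in HRS legs and 103420 to 166533 in PBS legs.

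Ratios of the members to these markers are given as a description. The summed level of 14 mitosis genes, *Ube2c* left out, was 40.1 to 181 in HRS legs (median 121) and 10.3 to 21.8 in PBS legs (median 14.5), or 16.5% to 24.8% of the leukocyte sum against 28.1% to 46.5%. The 14 genes include *Aurka*, which was not called and was at 2.91 to 5.16 in PBS legs. Over the 13 mitosis genes called higher the ranges overlapped, at 14.6% to 23.8% against 14.4% to 33.5%. The sum of 13 S phase genes, *Gins2* left out, was 129 to 264 (median 185) against 88.8 to 97.8 (median 96.1), or 24% to 53% against 164% to 408% of the leukocyte sum. Over the 8 S phase genes called higher the ranges were 13.1% to 18.6% and 41.2% to 64.5%, without overlap. For *Mki67* alone the ranges overlapped, at 3.10% to 5.27% in HRS legs and 1.37% to 5.98% in PBS legs. For *Pclaf* they were 1.14% to 1.91% and 0.834% to 2.31%. *Cdkn1a* was at 13.3% to 47.8% against 98.2% to 188%. The part of any cell type in these changes was not tested.

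**Figure D3:**
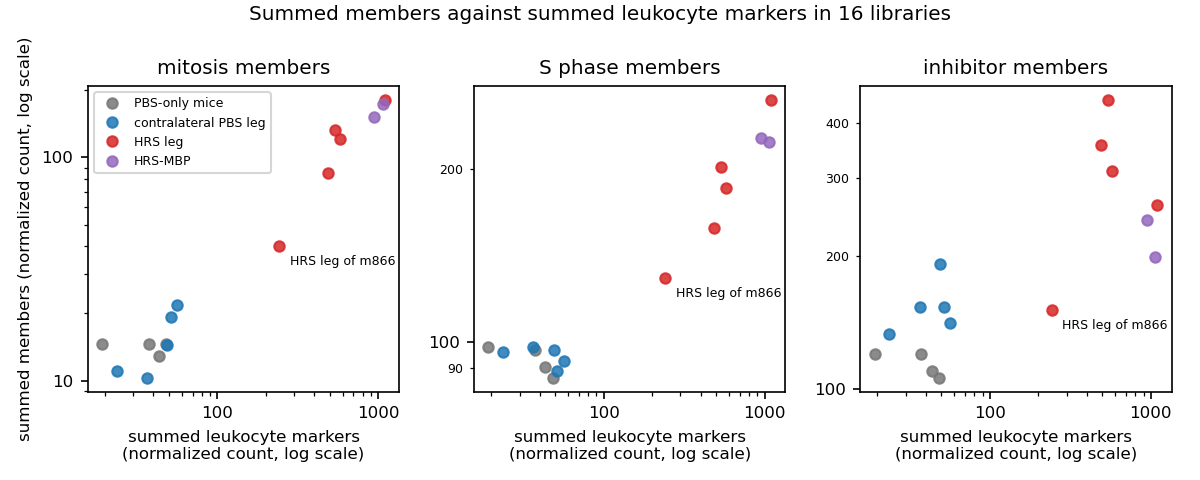
Summed normalized counts of a class (vertical, log axis) against the summed level of 5 leukocyte markers (horizontal, log axis), in a panel each for mitosis, S phase and inhibitors, with a point for each of the 16 libraries coloured by group. The mitosis sum spans 40.1 to 181 in HRS legs and 10.3 to 21.8 in contralateral legs, while the inhibitor sum is highest, at 450, in a leg whose leukocyte sum is 538.

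HRS legs were next compared with legs of mice that never received HRS. Here 32 members rose and 1 (*Ube2c*) fell, where 18.9% of all genes tested were called higher and 5.87% lower. The median log2 fold change was 1.89 over the members and 0.147 over all genes. This comparison shares its HRS legs with the first. The counts were 13 higher and 1 lower in mitosis (median 2.42), 10 in S phase (1.41), 6 in G1 and S entry (1.41) and 3 among the inhibitors (1.65). *Mki67* was at 1.19 to 2.06 in PBS-only libraries, with a log2 fold change of 3.5 ± 0.45 (adjusted p = 2.76e-05). Members called here but not between legs were *Pcna* (1.04 ± 0.15), *Ccnd2* (1.12 ± 0.28) and *Gins2* (1.42 ± 0.20). The calls of *Pcna* and *Ccnd2* were lost under median-of-ratios rescaling, and those of *Pcna* and *Gins2* without both legs of m868. The fall of *Ube2c* (-1.06 ± 0.30) was not called without the HRS leg of m864 (-0.83) or of m865 (-0.99) or under quantile normalization (-0.60). *Cdkn1a* was at 31.9, 35.2, 28.9 and 29.1 in PBS-only libraries, below all 5 HRS legs (2.25 ± 0.29, limma adjusted p = 2.62e-05). General leukocyte markers summed to 242 to 1099 in HRS legs and 19.2 to 48.2 in PBS-only libraries, and the part of these cells was not tested.

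Contralateral PBS legs were compared with PBS-only libraries to see whether legs that received PBS differ with the animal's treatment. No member was called by limma, where 0% of all genes tested were called higher and 0.00609% lower. An unadjusted p under 0.05 was found for 2 members (*Gins2* and *Cdkn1a*) and 902 genes in all. With array quality weights in place of equal weights, 1 member (*Gins2*) was called. *Mki67* differed by 0.02 ± 0.45 and *Top2a* by -0.11 ± 0.46, with overlap. *Cdkn1a* was at 43.8 to 91.8 in the 5 contralateral legs and at 28.9 to 35.2 in the PBS-only libraries. These ranges did not overlap, but the difference of 0.91 ± 0.29 did not pass the test over all genes (limma adjusted p = 0.791). *Cdkn1c* did not overlap either, at 30.1 to 39.9 against 21.4 to 28.2 (0.36 ± 0.36).

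*Gins2* stood out in this comparison, at 17.5, 17.9, 13.4, 18.2 and 17.0 in contralateral legs and at 11.1, 9.42, 6.17 and 4.69 in PBS-only libraries, without overlap (1.12 ± 0.20, adjusted p = 0.167). Its exons share 67.3% of their bases with *Gse1* on the opposite strand. *Gse1* was at 11.8 to 25.1 in contralateral legs and 21.7 to 42.5 in PBS-only libraries, moving the other way. The part of the shared bases in these values was not tested.

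**Figure D4:**
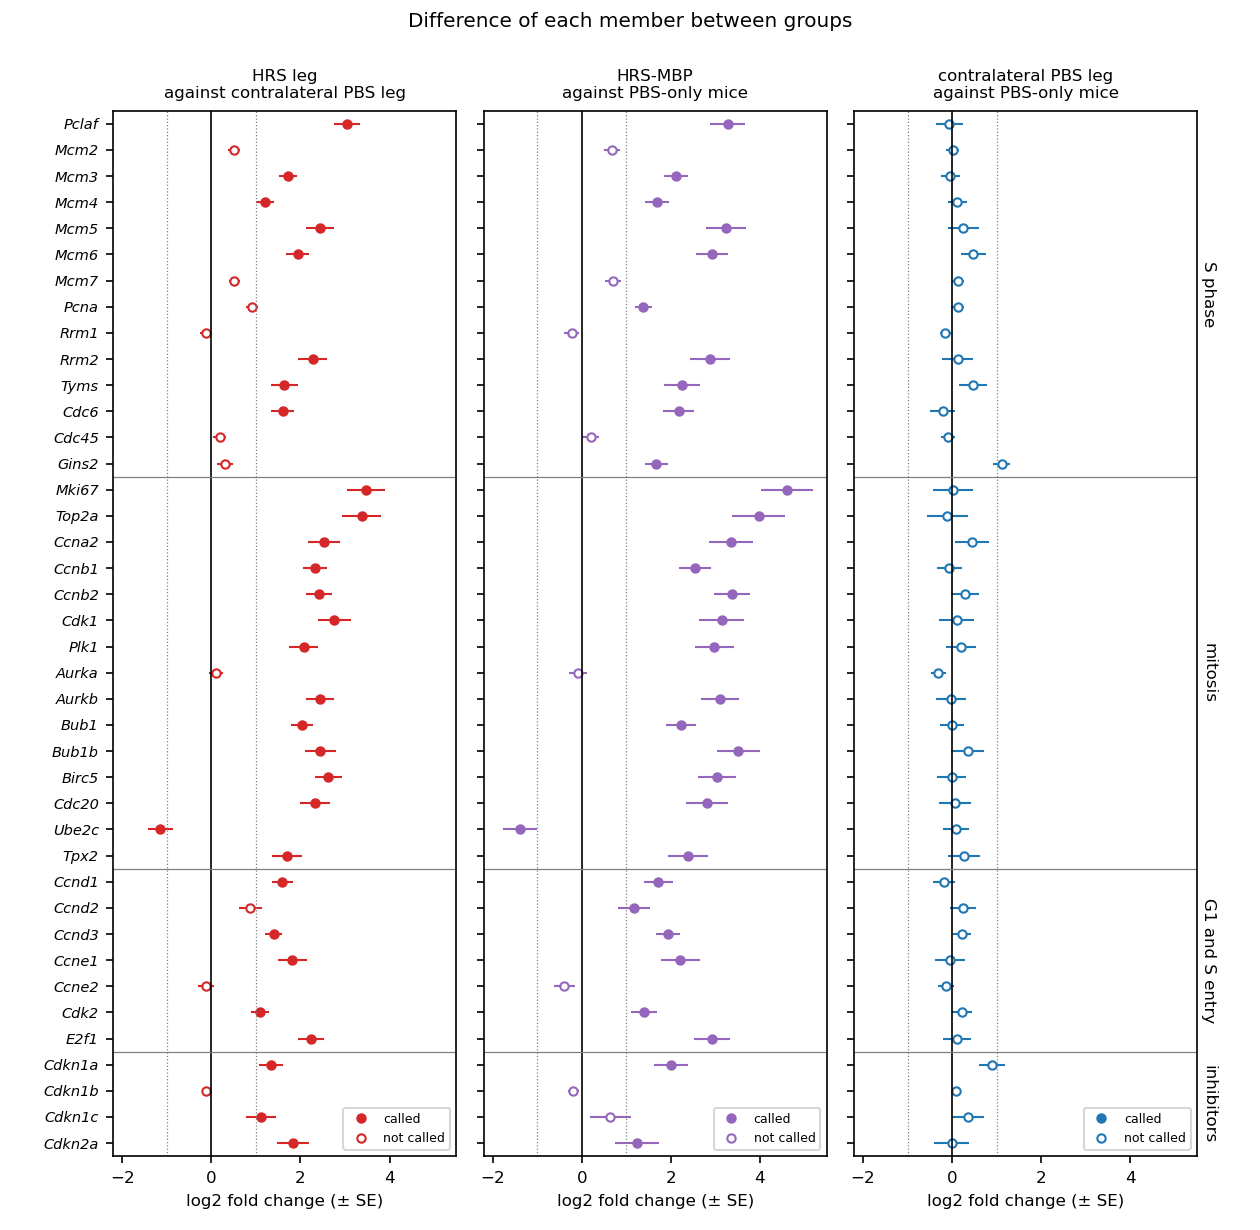
Log2 fold change with its standard error for each of the 40 members in 3 comparisons, grouped by class, with filled points for called members and dotted lines at the fold threshold. Between legs, points run from *Mki67* at 3.47 down to *Ube2c* at -1.15, whereas all 40 points of the contralateral legs against PBS-only libraries are open.

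HRS-MBP libraries were compared with the same PBS-only libraries. In them 31 members rose and 1 (*Ube2c*) fell, where 20.7% of all genes tested were called higher and 10.2% lower (median 2.20 over members and 0.108 over all genes). General leukocyte markers summed to 945 and 1062 in HRS-MBP libraries and 19.2 to 48.2 in PBS-only libraries, and the part of these cells was not tested. *Mki67* was at 39.2 and 56.1, above every PBS-only library (4.61 ± 0.59, adjusted p = 2.04e-05). *Mcm5* was at 18.1 and 15.0 (3.24 ± 0.44) and *E2f1* at 16.4 and 17.9 (2.93 ± 0.40). *Cdkn1a* was at 136 and 119 (2.01 ± 0.37). *Cdkn1c*, at 54.0 and 30.7, was not called (0.64 ± 0.46, adjusted p = 0.240). *Cdkn2a*, at 0.937 and 0.734, was just past the threshold (1.23 ± 0.49, limma adjusted p = 0.0436) and the call was lost when any of 5 of the 6 libraries compared was left out. It was also lost with the PBS-only legs averaged per mouse (limma adjusted p = 0.102), at a pseudocount of 2 (0.45) and under quantile normalization (0.80). The call of *Ccnd2* (1.17 ± 0.36) was lost without the library of m861 (adjusted p = 0.0947), and that of *Ube2c* (-1.39 ± 0.39) without the library of m860 (adjusted p = 0.0528) and under quantile normalization (-0.90). With 2 libraries against 4, an exact permutation test cannot go below p = 0.0667, and that minimum counts both legs of a PBS-only mouse as separate units.

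The difference between the HRS groups was tested directly. No member was called between HRS-MBP libraries and HRS legs by limma, and 1 (*Cdc6*) had an unadjusted p under 0.05, where 0.396% of all genes tested were called higher, 0.067% lower and 2371 had an unadjusted p under 0.05. *Mki67* differed by 1.11 ± 0.57 (adjusted p = 0.382), which does not show that the groups were alike. Class medians were 0.42 for mitosis, 0.32 for S phase, 0.31 for G1 and S entry and -0.42 for the inhibitors, of which all 4 were lower in HRS-MBP libraries. Without the HRS leg of m866, these medians were 0.114, 0.18, 0.136 and -0.784, and *Cdkn1c* (-1.21, limma adjusted p = 0.0324) and *Cdkn2a* (-1.03, limma adjusted p = 0.0467) were called lower. The shares of all genes called in that setting are not given here, so these calls are not read as particular to the members. Marker levels of other cells are given beside these values. Leukocyte markers summed to 945 and 1062 in HRS-MBP libraries, within the range of HRS legs (242 to 1099). The B and plasma cell sum was 96.3 and 697 against 20.3 to 53.1 in HRS legs, without overlap, and the T cell sum 123 and 172 against 23.6 to 155. The endothelial markers *Kdr* (21.5 and 27.5, against 34.9 to 44.2) and *Cldn5* (9.27 and 12.5, against 20.1 to 33.7) were lower in both HRS-MBP libraries than in every HRS leg. No marker tested was called between the HRS groups, and the part of these cells in the members' values was not tested.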

How the data were processed

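Poly(A) RNA of hamstring muscle was sequenced in 16 libraries of 9 mice, grouped by the treatment, mouse and leg in the sample labels. The authors deposited normalized counts per gene, a signal that is never negative and not log-transformed. Their counting, scaling and use of strand are not given in the sources used here. The submitters' processing notes name STAR 2.7.8a, limma and GRCm39, whereas the deposited coordinates match GENCODE M21 on GRCm38 for 98.9% of the 25652 genes matched by symbol and chromosome. Low values were whole multiples of 1 read (tolerance 0.02) for 75.1% to 77.5% only, so no count model was used, and that step gave the implied depth. No column of another series was present (0). Libraries were made on 3 sequencing platforms, and which library ran on which is not stated.

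Tests used limma 3.58.1 in R 4.3.3 (lmFit, then eBayes allowing for a trend with the mean). The values were log2(normalized count + 0.5) of the 16414 genes whose mean over libraries reached 0.5, in 1 fit of 4 groups without a block, and each p was adjusted by Benjamini-Hochberg over all genes tested. A fold change on this scale understates the change of low genes. Single members were also compared by exact permutation. Sums, pairs and motif matches used Python 3.11.15 with pandas 2.3.3, scipy 1.17.1 and matplotlib 3.10.9.

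HRS and contralateral legs with the same number come from the same mouse. Across genes, the deviations of the legs of a mouse from their group means correlated at 0.119, 0.163, 0.0972, -0.0256 and -0.366 in m862 to m866 (mean -0.00253, against -0.00678 for legs of different mice). The mouse block was an alternative, beside the pseudocount, filter, scaling, variance model, weights, libraries in the fit and each library left out. The 4 PBS-only libraries were treated as replicates although they share 2 mice, so their p-values lean on spread between legs, and averaging the legs per mouse was an alternative.

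The members and lists were chosen with earlier results of these data known. All 40 members are named, with the 3 genes of each other pathway list that moved most between the legs of a mouse. Promoter sequences are from RefSeq on GRCm38.p6. Human samples, single cells and cytometry were not used here.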

Additional observations from a re-analysis of the deposited data

Results flagged for a closer look

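In 10 of the 120 groups of 4 or 5 libraries compared (40 members in HRS legs, contralateral legs and PBS-only libraries), 1 library lay far from the rest by Dixon's test, which chance gives in about 1 in 20 groups. The PBS leg of m866 gave 4 of these. It had the lowest contralateral *Mcm2* (8.35, others 10.4 to 10.9) and *Aurka* (2.91, others 4.66 to 5.16) and the highest *Ccnd2* (71.1, others 22.0 to 25.6) and *Ccnd3* (41.5, others 21.8 to 25.1). The HRS leg of m866 had *Cdkn2a* at 0.0935, an implied 3 reads, where the other HRS legs were at 1.71 to 2.60.

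Among other contralateral legs, *Mcm7* was at 11.4 in m865 (others 9.71 to 10.1) and *Gins2* at 13.4 in m864 (others 17.0 to 18.2). Among PBS-only libraries, *Cdc45* was at 3.64 in the right leg of m868 (others 2.75 to 2.87), where 3 reads are worth 0.364, *Ccnd3* at 19.2 in the left leg of m867 (others 23.0 to 23.6) and *Cdkn1c* at 21.4 in the left leg of m868 (others 27.1 to 28.2).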

How the results depend on the processing

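Values under the alternatives were tallied for all 40 members in 3 comparisons (HRS legs with contralateral legs and with PBS-only libraries, and HRS-MBP with PBS-only libraries). In the tally, 2 members stood for contralateral against PBS-only libraries and 4 for HRS-MBP libraries against HRS legs, while counts of calls covered all 40. Of these 3804 values, 3723 kept their direction and their side of the threshold, 51 lost a call, 20 gained one and 10 changed sign. The members called between the legs of a mouse numbered 29 to 31 when each library was left out in turn and 25 to 34 under the other settings (25 at a pseudocount of 2). Against PBS-only libraries they numbered 31 to 33 and 27 to 35 for HRS legs, and 30 to 32 and 27 to 34 for HRS-MBP. With a replicate block of mouse in the 10 paired libraries, 29 members were called, and the block changed no call other than that of *Ube2c*.

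Contralateral legs against PBS-only libraries gave 0 calls, and 1 with array quality weights. HRS-MBP against HRS legs gave 0 to 2 calls when each library was left out in turn, the 2 without the HRS leg of m866, and also 2 with array quality weights and 2 without both legs of m866, a setting chosen after seeing the data. The calls were *Cdkn1c* and *Cdkn2a* each time, and the shares of all genes called under these settings are not given here.

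The members whose sign changed had fold changes of at most 0.21 in size in the reported fit. Under quantile normalization *Cdc45* became -0.25 between legs, -0.43 for HRS legs and -0.39 for HRS-MBP against PBS-only libraries, and *Aurka* became -0.32 between legs. That scaling moved the median of all genes from 0.0769 to -0.16, from 0.147 to -0.163 and from 0.108 to -0.235 in these comparisons. Median-of-ratios rescaling gave *Cdc45* -0.0294 for HRS legs against PBS-only libraries. Leaving out each library in turn, *Aurka* ranged from -0.03 to 0.17 between legs (-0.028 without the PBS leg of m866, and -0.024 without both its legs) and from -0.29 to 0.13 for HRS-MBP against PBS-only libraries. *Cdkn1b* ranged from -0.090 to 0.0022 for HRS legs against PBS-only libraries. The cause of these changes was not tested. Depth limits *Cdkn2a*, *Bub1* and *Ccne1*, which had libraries at 0 reads.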

Other observations

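Genes of the same pathways outside the 40 members were read from lists, without a test of the lists. Between the legs of a mouse, 16.9% of all genes tested were called higher and 6.27% lower, and counts near these shares are no result about a list. Of 42 other G2 and M genes tested, 32 rose in HRS legs compared with contralateral PBS legs and 0 fell (median log2 fold change 1.56, against 0.0769 over all genes). The largest changes were in *Cenpe*, the kinetochore motor (2.62 ± 0.33), *Cenpf* (2.40 ± 0.36) and *Nuf2*, of the kinetochore (2.35 ± 0.33). Of 30 other S phase genes 15 rose (median 0.98), led by *Uhrf1*, which maintains DNA methylation on new strands (2.61 ± 0.31), *E2f8*, an E2F repressor (2.49 ± 0.32), and *Dtl* (2.11 ± 0.33). Of 16 genes of origin licensing and firing 6 rose (median 0.61), led by *Cdt1*, the licensing factor (2.17 ± 0.27), *Dbf4* (2.08 ± 0.28) and *Mcm10* (1.52 ± 0.29).

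Among 20 E2F, pocket protein and DREAM regulators, 6 rose and 1 fell (median 0.37), the fall being near the share over all genes. *Foxm1*, the activator of G2 and M genes, rose by 2.56 ± 0.28, as did *Cdk6* (2.38 ± 0.25), the kinase partner of D cyclins, and *Mybl2* by 1.76 ± 0.26. Of 10 other inhibitors of the cycle 2 rose (median 0.29), close to the share over all genes, *Btg1* by 1.44 ± 0.30 and *Pkmyt1* by 1.20 ± 0.25, while *Btg2* was at 0.48 ± 0.16. Of 16 p53 targets other than *Cdkn1a*, 4 rose and 2 fell (median 0.49), not far from the shares over all genes. *Gdf15* (2.09 ± 0.36) and *Eda2r* (1.28 ± 0.30) were higher, whereas *Perp* fell by 1.67 ± 0.45 on the log2 scale.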
